A study of Mus musculus with 72 samples.

Results

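The genes described here are 10 markers of the choroid plexus epithelium, namely Ttr, Kl, Folr1, Clic6, Kcnj13, Kcne2, Aqp1, Slc4a5, Prlr and Otx2. They were chosen by name, and each matched 1 of the 53715 gene identifiers in the count files. Their levels were followed in 36 brain libraries, 12 each from cerebellum, hippocampus and cerebral cortex. The tissue came from 6 Gnb5-/- and 6 Gnb5+/+ male mice of 18 weeks, and every mouse gave all 3 regions. The mutant allele lacks exon 3 of Gnb5 in the germline on a C57BL/6J background, so no cell type of the Gnb5-/- mice was spared. Cerebella and cortices were taken whole, and the hippocampi of both hemispheres were pooled.

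The choroid plexus is a folded sheet of epithelium that lies in the ventricles of the brain and secretes cerebrospinal fluid. It borders the hippocampus, the cerebellum and the inner side of the cortex, so that pieces of it can come along when these regions are dissected. Its cells are known for very high transthyretin, for folate transport and for a dense set of ion and water channels.

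The members fall into 4 roles. OTX2 is a homeodomain transcription factor that the choroid plexus needs to form. Ttr encodes transthyretin, the thyroid hormone carrier of cerebrospinal fluid, and Folr1 encodes the folate receptor alpha, which carries folate across the epithelium. Kcnj13 and Kcne2 encode a potassium channel and a potassium channel subunit, Aqp1 a water channel, Slc4a5 a sodium bicarbonate cotransporter and Clic6 a chloride channel family protein. Kl encodes Klotho, the co-receptor of FGF23, and Prlr encodes the prolactin receptor.

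The members lie apart from each other in the genome (GRCm38), except Kcne2 at chr16:92292389-92298129 and Clic6 at chr16:92485736-92541243. Kl lies at chr5:150952607-150993817, Folr1 at chr7:101858331-101870788 and Kcnj13 at chr1:87386363-87394729. Aqp1 lies at chr6:55336432-55348555, Slc4a5 at chr6:83219828-83304945, Prlr at chr15:10177238-10349180 and Otx2 at chr14:48657677-48673819. Kcnj13 sits inside Gigyf2 on the opposite strand, Folr1 overlaps Anapc15 and Otx2 overlaps Otx2os1, also on opposite strands. The libraries were made with a stranded kit, but the strand setting of the counting was not given in the sources used here, so reads of these pairs could be shared. Clic6 overlaps 2410124H12Rik, Prlr overlaps Gm21973 and Otx2 overlaps Gm49154 on the same strand, and strand cannot separate the reads of these pairs.

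RefSeq start sites (GRCm38.p6) were used for 7 members, with 13 starts in all, and none of Ttr, Folr1 or Clic6 was among them. The 250 bases before the start are shown for Kcnj13 (minus strand, chr1:87394730-87394979) and for the upstream start of Kcne2 (plus strand, chr16:92292139-92292388), a pair of channel genes whose levels followed Ttr in hippocampus and cortex. Capitals mark TATAAA on either strand, the core of a TATA box.
Kcnj13: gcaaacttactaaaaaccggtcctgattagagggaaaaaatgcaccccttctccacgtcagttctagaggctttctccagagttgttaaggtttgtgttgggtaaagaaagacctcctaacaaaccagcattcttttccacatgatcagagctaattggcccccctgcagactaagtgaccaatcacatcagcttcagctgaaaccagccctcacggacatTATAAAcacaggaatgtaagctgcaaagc
Kcne2: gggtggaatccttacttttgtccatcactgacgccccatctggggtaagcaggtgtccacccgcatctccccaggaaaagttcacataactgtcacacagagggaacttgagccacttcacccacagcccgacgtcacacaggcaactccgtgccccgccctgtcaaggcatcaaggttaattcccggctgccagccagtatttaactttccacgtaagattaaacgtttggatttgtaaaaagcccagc
TATAAA occurred before 3 of the 13 starts, 1 each of Kcnj13, Slc4a5 and Otx2, and before 12.4% of all 32851 starts. TAATCC, the core of an OTX2 site, whose first bases TA can coincide with the last bases of a reversed TATAAA, occurred on either strand before 1 of the 13 starts, another one of Otx2, and before 6.25% of all starts.

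The brain libraries held 29204390 to 48807435 reads on genes, with a median of 42339164.5. Gnb5 itself checked the genotype labels. Its level was 96.5 to 156 CPM (reads of a gene relative to all reads on genes, after TMM normalization) in Gnb5+/+ and 11.9 to 22.0 CPM in Gnb5-/- libraries, with no overlap in any region. Lists of regional marker genes followed the labels too, since the summed cerebellar list was 1623 to 2242 CPM in cerebella and at most 28.3 CPM elsewhere. A set of 3 Gnb5-/- libraries stood apart from the rest, the cerebellum of mouse 12 and the cortices of mice 14 and 3. Reads outside genes made up 8.02%, 6.86% and 8.32% of their uniquely placed reads, against 11.7% to 16.97% in the other 33. In the same 3 libraries, the 25% of genes with the shortest exon length (up to 2196 bases) stood above the 25% with the longest (from 6081 bases) by 1.33, 1.24 and 0.65 on the log2 scale, relative to the region's other libraries. In the other 33 libraries this difference was between -0.13 and 0.09. The spread, the correlations within a region, the regional differences and the likeness to Ttr are also given without them.

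Ttr was one of the most variable genes between mice in hippocampus and cortex of both genotypes, and in Gnb5-/- cerebellum through mouse 12. Over the 36 libraries Ttr, which lies at chr18:20665280-20674321 (GRCm38), ran from 1.18 CPM (53 reads) to 1414 CPM (57776 reads), a 1203-fold range. In bulk tissue, more choroid plexus cells and more RNA per cell cannot be told apart.

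In Gnb5+/+ hippocampus, Ttr was 4.29 CPM at the lowest (mouse 8), 55.7 at the median and 1414 at the highest (mouse 7), a 330-fold span between 6 hippocampi of the same genotype. In Gnb5-/- hippocampus it was 7.32, 26.3 and 243 CPM, with mouse 3 lowest and mouse 10 highest. The Gnb5-/- range lay wholly within the Gnb5+/+ range, and mouse 7 (1414 CPM) and mouse 17 (489 CPM) of Gnb5+/+ lay above all Gnb5-/- values.

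In Gnb5+/+ cortex, Ttr was 6.24 CPM at the lowest (mouse 18), 23.8 at the median and 265 at the highest (mouse 16). In Gnb5-/- cortex it was 3.52 (mouse 12), 61.2 and 652 CPM (mouse 5). The cortices spread along the whole range in both genotypes instead of holding 1 outlying library.

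The cerebellum differed from both. In Gnb5+/+ cerebella Ttr stayed between 1.29 and 5.21 CPM, with a median of 2.68. In Gnb5-/- cerebella the lowest value was 1.18 CPM, the median 2.14 and the second highest 5.69, but mouse 12 reached 853 CPM. Ttr was below 10 CPM in 11 of 12 cerebella, in 2 of 12 hippocampi and in 4 of 12 cortices, and at or above 200 CPM in 1, 3 and 3 libraries.

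**Figure D1:**
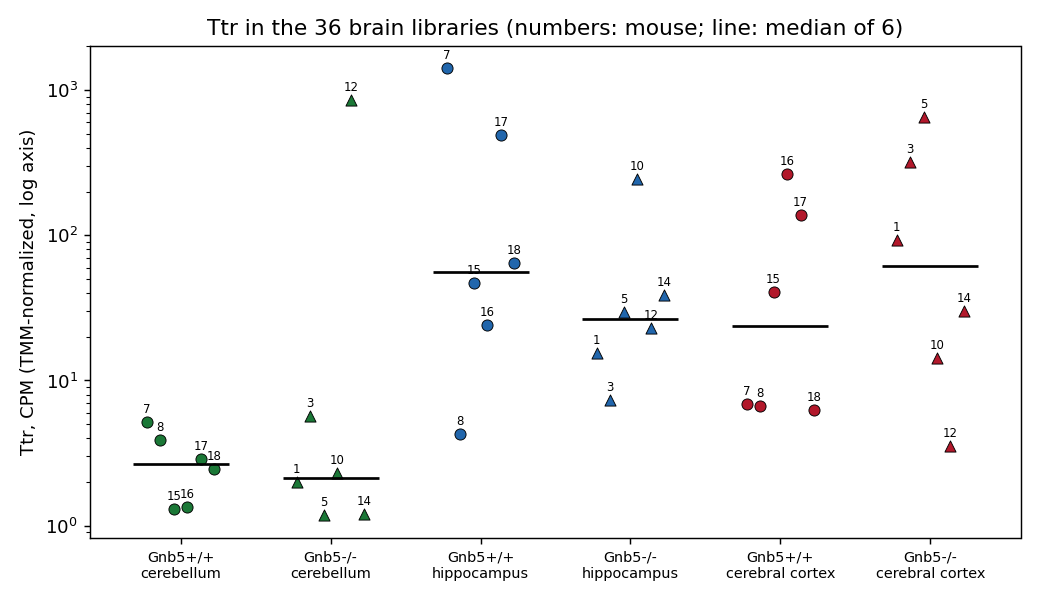
Ttr in CPM (TMM-normalized, log axis) in each of the 36 brain libraries, by genotype and region, with the mouse number beside each point and a line at the median of 6. Hippocampi and cortices spread over 1 or more orders of magnitude within each group, while 11 of 12 cerebella lie below 10 CPM and mouse 12 lies at 853 CPM.

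As the standard deviation (SD) of log2 CPM within a group of 6, the spread of Ttr was 3.01 in Gnb5+/+ hippocampus, 1.70 in Gnb5-/- hippocampus, 2.41 in Gnb5+/+ cortex and 2.82 in Gnb5-/- cortex. Among 19388 genes these SDs ranked 17, 53, 20 and 22 from the top. In cerebellum the SD of Ttr was 0.79 in Gnb5+/+ (rank 569) and 3.63 in Gnb5-/- (rank 4), and the latter became 0.91 without mouse 12. Likewise, the SD in Gnb5-/- hippocampus became 0.94 without mouse 10. Without the cortices of mice 3 and 14, the SD in Gnb5-/- cortex was 3.27 over 4 mice.

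The other members shared this spread to unequal degrees. An SD above 1 was seen for 9 of 10 members in Gnb5+/+ hippocampus, where 1.75% of all 19388 genes had one. The corresponding counts were 6 of 10 in Gnb5-/- hippocampus (1.48% of genes), 4 of 10 in Gnb5+/+ cortex (0.970%) and 7 of 10 in Gnb5-/- cortex (10.8%). In cerebellum there were 0 of 10 in Gnb5+/+ (1.28%) and 5 of 10 in Gnb5-/- (5.96%). Without mouse 12 the count in Gnb5-/- cerebellum was 0 of 10 and the share of all genes 1.10%. Without mice 3 and 14 the count in Gnb5-/- cortex was 9 of 10 and the share of all genes 1.33%. Without mouse 10 the count in Gnb5-/- hippocampus was 0.

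Single hippocampi carried the high values of the channel and transporter genes. In Gnb5+/+ hippocampus, Slc4a5 was 0.0533 CPM at the lowest (2 reads, mouse 8), 0.559 at the median and 15.4 at the highest (mouse 7). Clic6 was 0.800, 2.68 and 33.2 CPM, and Kcnj13 was 0.400, 1.14 and 10.4 CPM, with the same mice at both ends. Kcne2 ran from 3 reads in mouse 8 to 333 reads (8.15 CPM) in mouse 7.

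The folate receptor and the transcription factor had the same order at the top. Folr1 was 0.406 CPM at the lowest (mouse 16), 0.673 at the median and 11.6 at the highest, and Otx2 was 0.293, 0.640 and 8.25 CPM, in Gnb5+/+ hippocampus. Mouse 7 was highest and mouse 17 second for both. In Gnb5-/- hippocampus, mouse 10 was highest for all 10 members, with Folr1 at 1.82 CPM and Otx2 at 1.73 CPM.

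In cortex, mouse 16 was the highest Gnb5+/+ library for 9 of 10 members and mouse 5 the highest Gnb5-/- library for all 10. Folr1 was 0.143, 0.574 and 2.84 CPM (lowest, median, highest) in Gnb5+/+ cortex and 0.221, 0.698 and 5.10 CPM in Gnb5-/- cortex. Slc4a5 reached 7.88 CPM in mouse 5, with the next Gnb5-/- cortex at 1.28 CPM. Kcnj13 was the exception to mouse 16, with its highest Gnb5+/+ value, 2.71 CPM, in mouse 17.

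**Figure D2:**
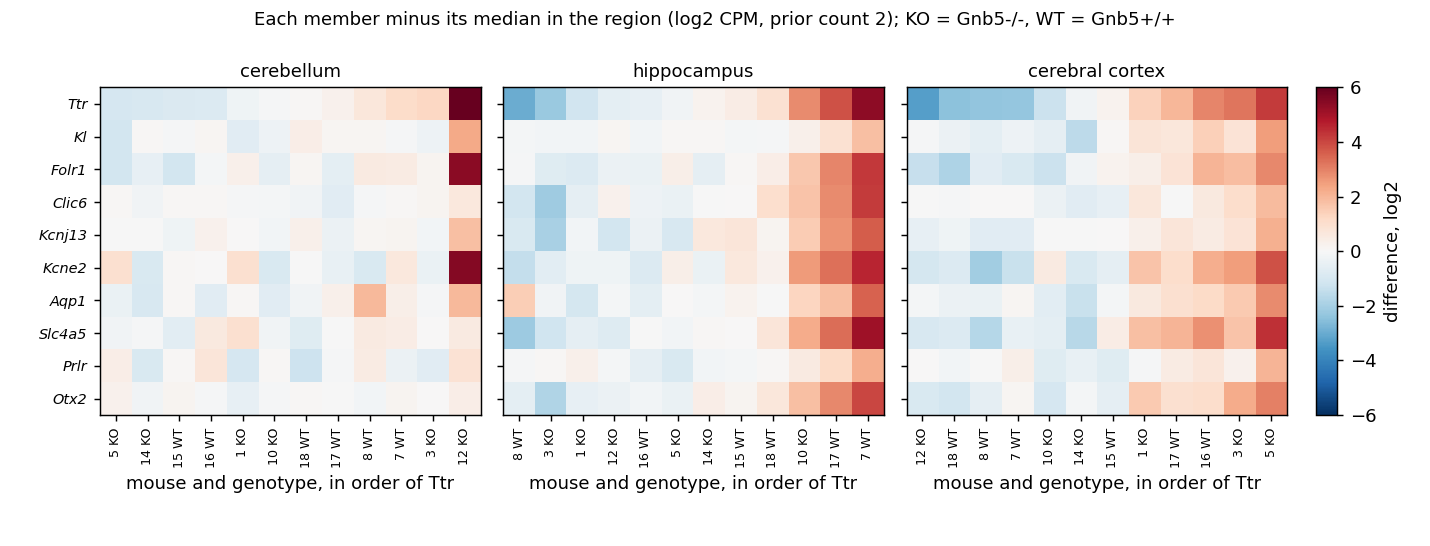
Each member's log2 CPM (prior count 2) minus its median over the 12 libraries of the region, with libraries in order of Ttr from left to right and the colour scale in log2 units. The columns at the right of the hippocampus and cortex panels are high for nearly all members, and in cerebellum 1 library, mouse 12, is high mainly for Ttr, Folr1, Kcne2, Kl, Aqp1 and Kcnj13.

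Whether the members moved together was asked with log2 CPM centred on each genotype, over 12 mice per region, in 27 relations (9 members against Ttr in 3 regions). In hippocampus, Pearson's r was 0.67 to 0.98 (median 0.94) and Spearman's rho 0.55 to 0.95. By permutation tests with Benjamini-Hochberg adjustment over the 27 relations, 8 of 9 passed by r and 7 of 9 by rho. Slc4a5 followed Ttr most closely (r = 0.98, rho = 0.95, permutation p adjusted 0.000202 and 0.00027). Aqp1 did not pass (r = 0.67, permutation p adjusted 0.0672; rho = 0.60, adjusted 0.106), and Prlr passed by r alone (r = 0.74, permutation p adjusted 0.0313; rho = 0.55, adjusted 0.128). Without mice 7 and 8, which lay farthest from the median of Ttr, r was 0.60 to 0.98.

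In cortex, r was 0.60 to 0.96 (median 0.89), rho was 0.53 to 0.96, and 8 of 9 relations passed by r and 7 of 9 by rho. Folr1 was closest to Ttr (r = 0.96, rho = 0.96, both with a permutation p adjusted of 0.000135), followed by Kcne2 (r = 0.93, rho = 0.91, permutation p adjusted 0.00054 and 0.00146). Prlr did not pass (r = 0.60, permutation p adjusted 0.0721; rho = 0.53, adjusted 0.119), and Clic6 passed by r alone (r = 0.68, permutation p adjusted 0.0381; rho = 0.61, adjusted 0.0782). Without mice 12 and 5, r was 0.52 to 0.95. Without the cortices of mice 3 and 14, 7 of 9 relations passed over 10 mice, with r from 0.63 to 0.97.

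In cerebellum, mouse 12 formed a point of its own, and no pooled r is given. With it, 2 of 9 relations passed by r and by rho, those of Folr1 and Aqp1. Over the other 11 cerebella, r was -0.25 to 0.70, with Folr1 at 0.70 (rho = 0.55, permutation p adjusted 0.0469 by r and 0.153 by rho) and Aqp1 at 0.54 (rho = 0.56, permutation p adjusted 0.115 and 0.150). Folr1 had 0 to 4 reads in these 11 libraries, so little can be read from its relation at that depth. Aqp1 was 1.21 CPM in the cerebellum of mouse 8 (Gnb5+/+), the highest of the 12, with Ttr at 3.88 CPM, the second highest of the Gnb5+/+ cerebella. The hippocampus of mouse 8 had Aqp1 at 2.24 CPM with the lowest hippocampal Ttr, but its cortex had the lowest Aqp1 of the Gnb5+/+ cortices (0.530 CPM).

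**Figure D3:**
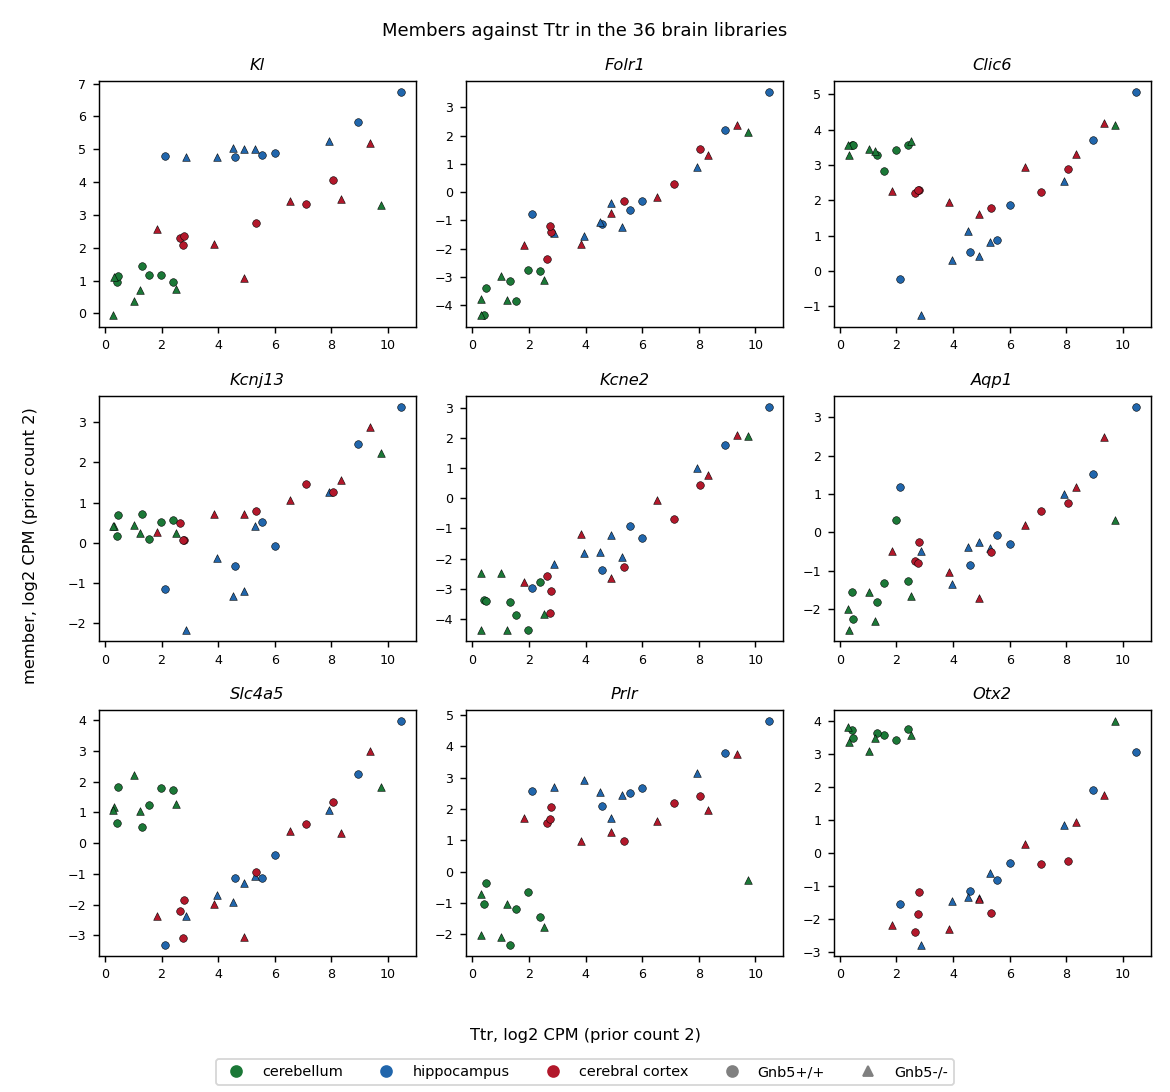
Log2 CPM (prior count 2) of 9 members against that of Ttr in the 36 brain libraries, coloured by region, with circles for Gnb5+/+ and triangles for Gnb5-/-. In hippocampus and cortex Folr1, Kcne2 and Slc4a5 lie near a line with Ttr, while Otx2, Clic6 and Slc4a5 in cerebellum and Kl in hippocampus are high at any level of Ttr.

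High Ttr in one region of a mouse did not go along detectably with high Ttr in another. The hippocampus of mouse 7 had the highest Ttr of all libraries (1414 CPM), and the cortex of mouse 5 the highest of the cortices (652 CPM), while the cerebellum of mouse 5 had the lowest Ttr of all 36 (1.18 CPM). Mouse 12 had the highest cerebellar value (853 CPM) and the lowest cortical value (3.52 CPM). Over 12 mice, r for Ttr was -0.15 between hippocampus and cortex (rho = -0.15), -0.57 between cerebellum and cortex (rho = -0.54) and -0.025 between cerebellum and hippocampus (rho = -0.091). Without the 2 mice farthest from the median, these r were -0.25, -0.13 and 0.06. None of 30 relations (10 members, 3 pairs of regions) passed by r or by rho, with a permutation p adjusted of 0.956 for r in each and of at least 0.853 for rho, and r ranged from -0.57 to 0.32.

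The regions themselves were compared within mice, with edgeR's quasi-likelihood test on all genes, the mouse as a block and the mean over genotypes as the contrast. Cerebellum against cortex gave 8 of 10 members with an adjusted p below 0.05, 2 higher and 6 lower in cerebellum, where 72.4% of 19388 genes passed (34.3% higher and 38.1% lower). Cerebellum against hippocampus gave 9 of 10, 3 higher and 6 lower, where 71.0% of genes passed (35.0% higher and 36.1% lower). Hippocampus against cortex gave 2 of 10, both higher in hippocampus, where 42.2% passed (19.6% higher and 22.7% lower). The members' shares were not tested against those of all genes. Since several members varied together between libraries, the 10 are not separate observations.

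Ttr, Folr1, Kcne2 and Aqp1 were lower in cerebellum than in both other regions. The log2 difference of Ttr was -4.47 ± 1.43 (SE; adjusted p = 0.00762 by edgeR, lower in 11 of 12 mice) against cortex and -4.25 ± 1.43 (adjusted p = 0.0107 by edgeR, 11 of 12 mice) against hippocampus. Folr1 differed by -3.35 ± 0.99 and -3.31 ± 0.97 (edgeR adjusted p = 0.00417 and 0.00398), and Kcne2 by -2.68 ± 1.07 and -2.99 ± 1.04 (edgeR adjusted p = 0.0288 and 0.0133). In 11 of 12 cerebella Folr1 had 0 to 4 and Kcne2 0 to 6 reads, and the cerebellum of mouse 12 had 172 and 163. With 1 mouse left out at a time, Kcne2 against cortex was called in 7 of 12 fits, and Ttr in both comparisons in 12 of 12. Without mice 3, 12 and 14 the difference of Ttr was -5.95 against cortex and -5.78 against hippocampus, both called. That of Folr1 was -5.01 and -5.22 (edgeR adjusted p = 0.000114 and 6.6e-05), and that of Kcne2 -3.80 and -4.32 (edgeR adjusted p = 0.000899 and 0.000175).

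Klotho and the prolactin receptor were called in every pair of regions, in the order hippocampus over cortex over cerebellum. The medians of Kcne2 and Aqp1 had the same order, but neither was called between hippocampus and cortex. Kl had medians of 30.7, 6.28 and 2.00 CPM over the 12 libraries of each region, in that order. Its lowest hippocampus (26.9 CPM) lay above all cortices but 1, the 36.4 CPM of mouse 5, and above every cerebellum. The log2 difference of Kl between hippocampus and cortex was 2.12 ± 0.39 (edgeR adjusted p = 9.81e-05), and between cerebellum and hippocampus -4.004 ± 0.42 (edgeR adjusted p = 6.4e-09). Prlr had medians of 6.12, 3.20 and 0.415 CPM, and its hippocampal level lay above the cortical one by 1.05 ± 0.30 (edgeR adjusted p = 0.00665, higher in 10 of 12 mice). In mouse 8, which had the lowest hippocampal Ttr, Kl was 28.0 CPM and Prlr 5.89 CPM in hippocampus, both close to the hippocampal median. Without mice 3, 12 and 14, hippocampus lay above cortex by 1.84 for Kl and by 0.89 for Prlr (edgeR adjusted p = 4.41e-05 and 0.0352).

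Otx2, Clic6 and Slc4a5 ran the other way, and were high in cerebella with little Ttr. Otx2 was 8.47 to 15.7 CPM in all 12 cerebella (median 11.7), against medians of 0.463 CPM in hippocampus and 0.362 CPM in cortex, and every cerebellum exceeded every other library. Its log2 difference was 4.30 ± 0.51 against cortex and 3.80 ± 0.50 against hippocampus (edgeR adjusted p = 5.36e-08 and 2.85e-07, higher in 12 of 12 mice), and 3.97 and 3.32 without mice 3, 12 and 14. OTX2 is also known in cerebellar granule cell precursors, but which cells gave the Otx2 reads in these adult cerebella was not tested.

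Clic6 was 7.01 to 17.6 CPM in cerebella, with medians of 11.3 CPM there, 1.75 in hippocampus and 4.80 in cortex. It differed between cerebellum and hippocampus by 1.85 ± 0.47 (edgeR adjusted p = 0.00113). Against cortex the difference was 0.92 ± 0.43 (edgeR adjusted p = 0.0578, with DESeq2 0.0411), although 11 of 12 mice were higher in cerebellum. Without mice 3, 12 and 14 the differences of Clic6 were 1.41 against hippocampus and 0.68 against cortex (edgeR adjusted p = 0.0148 and 0.186). Slc4a5 had medians of 2.35 CPM in cerebellum, 0.407 in hippocampus and 0.350 in cortex. Its log2 differences of 1.77 ± 0.70 and 1.62 ± 0.71 against cortex and hippocampus (edgeR adjusted p = 0.0262 and 0.0447) were no longer called without mice 3, 12 and 14 (1.05 and 0.97, edgeR adjusted p = 0.189 and 0.228). With 1 mouse left out at a time, Slc4a5 was called against cortex in 7 and against hippocampus in 4 of 12 fits, and Clic6 against cortex in 2 of 12.

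Kcnj13 was called in no pair of regions, with medians of 1.29 CPM in cerebellum, 0.807 in hippocampus and 1.63 in cortex. Ttr and Folr1 did not differ detectably between hippocampus and cortex, at -0.22 ± 1.25 and -0.04 ± 0.74 on the log2 scale. Per kilobase of exon, the medians in hippocampus were 29.0 CPM for Ttr, 3.29 for Kl, 0.636 for Kcnj13 and 0.448 for Clic6, and the other 6 members lay between 0.0701 for Slc4a5 and 0.399 for Prlr.

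**Figure D4:**
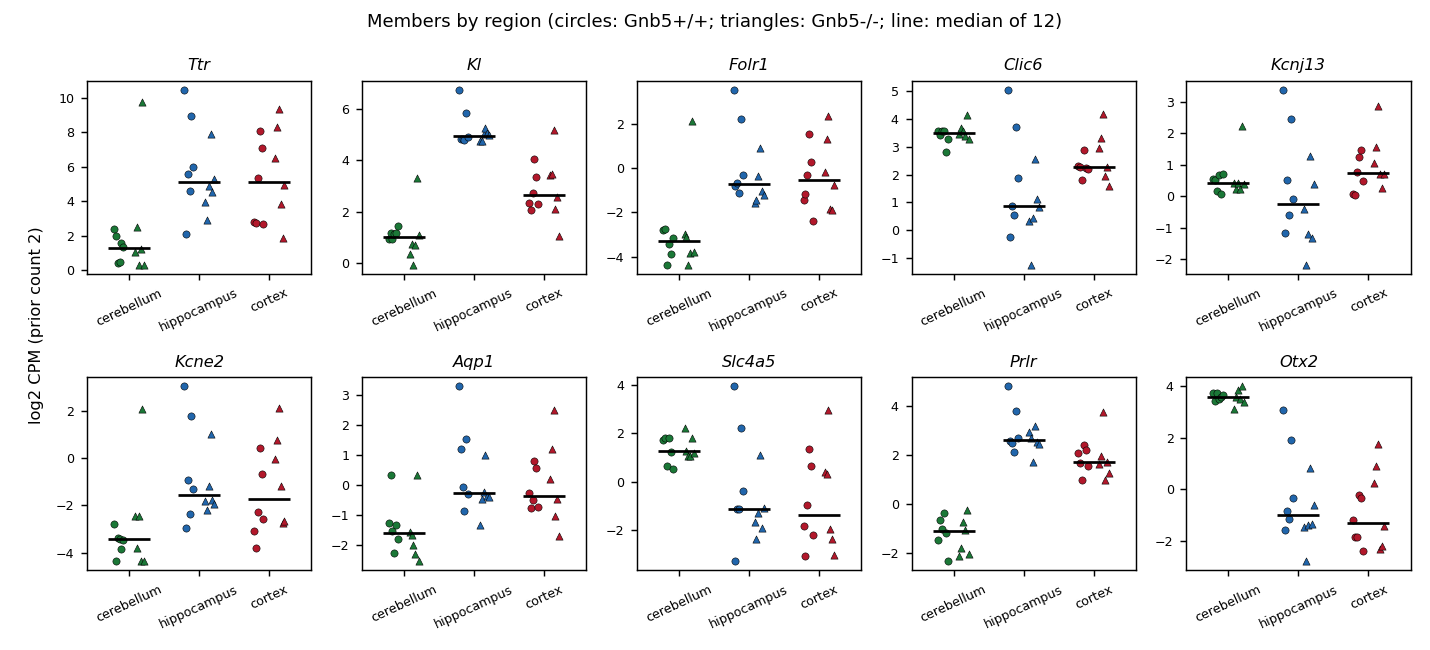
Log2 CPM (prior count 2) of each member in cerebellum, hippocampus and cerebral cortex, with circles for Gnb5+/+, triangles for Gnb5-/- and a line at the median of 12 libraries. Ttr, Folr1 and Kcne2 are low in all cerebella but 1, Otx2 is highest in all 12 cerebella, and Kl and Prlr have their highest medians in hippocampus.

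Between genotypes, no member was called in any region. With edgeR's quasi-likelihood test, 0 of 8 members tested in cerebellum passed an adjusted p of 0.05, where 0.0817% of 17139 genes did (Folr1 and Kcne2 had too few reads to be tested). The counts were 0 of 10 in hippocampus, where 0.165% of 17588 genes passed, and 0 of 10 in cortex, where 0.0557% of 17967 genes passed. DESeq2 also called 0 members in each region, and gave no adjusted p for Ttr and Kl in cerebellum. At an unadjusted p below 0.05, edgeR counted 1 member in cerebellum, 7 in hippocampus and 0 in cortex, among 1003, 1355 and 1327 of all genes. DESeq2 counted 0, 7 and 1 members, among 1354, 1372 and 1798 of all genes.

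In hippocampus all 10 log2 differences (Gnb5-/- minus Gnb5+/+) were negative, from -0.55 for Kl to -2.60 for Slc4a5. Ttr differed by -2.52 ± 1.17 (edgeR adjusted p = 0.648), and its exact permutation p over all splits of the 12 mice was 0.355. The smallest exact permutation p of any member was 0.139, for Aqp1. Without mouse 7, 0 members had an unadjusted p below 0.05, and the median difference of the 10 members moved from -1.96 to -0.95, against 0.00 for all genes in both fits.

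In cortex all 10 differences were positive, from 0.35 for Prlr to 1.73 for Kcne2. Ttr differed by 1.26 ± 1.23 (edgeR adjusted p = 0.561, exact permutation p = 0.509). Without mouse 5, 6 members were positive and 4 negative, and their median difference moved from 0.82 to 0.08. Since most members were correlated with Ttr from mouse to mouse, the 10 directions are not 10 separate observations.

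In cerebellum Ttr differed by 5.65 ± 1.797 (edgeR adjusted p = 0.583, exact permutation p = 0.721). Without mouse 12 the difference was -0.19. The other 7 members tested lay between -0.24 for Aqp1 and 0.41 for Kcnj13, and Otx2, whose cerebellar level hardly varied, differed by -0.01 ± 0.14. The genotypes overlapped for every member in every region. The share of all genes without overlap was not counted, so nothing about the members is read from this.

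The genotype difference was also compared between regions, in the interaction terms of the 36-library fit. By edgeR, 0 of 10 members passed for cerebellum against cortex (0.0103% of 19388 genes passed), for cerebellum against hippocampus (0.0258%) and for hippocampus against cortex (0%), and DESeq2 called 0 members in each. At an unadjusted p below 0.05 there were 0, 0 and 2 members, among 721, 721 and 857 of all 19388 genes. The 2 members were Otx2 and Clic6.

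The mix of members above the regional median was not the same in all libraries with high Ttr. For the 7 libraries with Ttr of at least 200 CPM, a limit set after the values were seen, each member's CPM above its regional median was divided by that of Ttr. Per 1000 CPM of Ttr, Folr1 (2297 exonic bases) was 5.07 in the cerebellum of mouse 12, 6.23 in the cortex of mouse 3 and 6.03 to 9.54 in the other 5 libraries. Kcne2 (1767 bases) was 4.81 and 4.86, against 4.51 to 8.01. Kcnj13 (1270 bases) was 3.97 and 4.53, against 3.10 to 10.2. Across the 7 libraries the ratio of Kcnj13 thus varied more than those of Folr1 and Kcne2. Otx2 (4221 bases) was 4.66 and 5.20, against 1.93 to 7.09, and Clic6 (3914 bases) was 7.44 and 17.8, against 10.8 to 24.8.

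For 3 members both libraries lay below the other 5. Prlr (15339 bases) stood at 0.437 per 1000 CPM of Ttr in the cerebellum of mouse 12 and at 2.30 in the cortex of mouse 3, against 8.96 to 16.8 in the other 5. Kl (9328 bases) stood at 9.19 and 17.2 in the same pair, against 36.7 to 57.9, and Slc4a5 (5804 bases) at 1.30 and 3.03, against 7.99 to 12.2. Both libraries belong to the 3 with few reads outside genes, in which long genes were lower across the genome. Aqp1 (2627 bases) was low in mouse 12 alone, at 1.07 against 4.07 to 7.81. In the cerebellum of mouse 12, some levels lay near those of cerebella with little Ttr. Slc4a5 was 3.45 CPM, against 4.61 in mouse 1 and 3.50 in mouse 16 (Ttr 1.99 and 1.34 CPM). Prlr was 0.787 CPM, against 0.727 in mouse 16, and Aqp1 1.19, against 1.21 in mouse 8. Otx2 exceeded the next cerebellum only slightly. Kl, at 9.82 CPM, lay above the next, at 2.70. For Slc4a5, Prlr, Aqp1 and Otx2, these ratios of mouse 12 cannot be read as a choroid plexus mix. The part of exon length, or of the place of the choroid plexus, in these ratios was not tested.

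**Figure D5:**
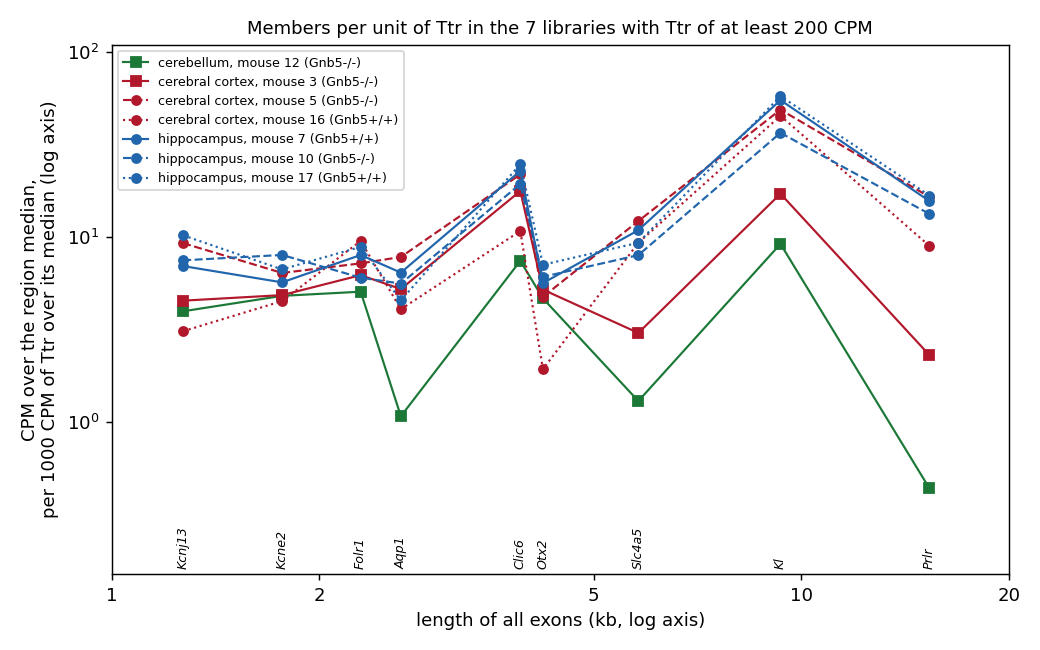
For each of the 7 libraries with Ttr of at least 200 CPM, each member's CPM above its regional median per 1000 CPM of Ttr above its own (log axis), against the summed length of its exons in kilobases (log axis). Squares mark the 2 libraries with few reads outside genes, which lie lowest for Slc4a5, Kl and Prlr.

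Over the 36 libraries, centred on each group of 6, 6 members were among the 20 genes with the highest correlation with Ttr and 8 among the first 50, of 19387 genes ranked. The median r was 0.78 for the 9 members and 0.03 for all genes, as a description across genes that share libraries. The 10 other genes most like Ttr were Slc16a8, 1500015O10Rik, Enpp2, Tmem72, Sostdc1, Prr32, Krt18, Drc7, Cldn2 and Calml4, with Slc16a8 at r = 0.92 and 1500015O10Rik at r = 0.87. SLC16A8 is a lactate transporter, ENPP2 the enzyme autotaxin and CLDN2 a claudin of leaky epithelia. Without the cerebellum of mouse 12 and the cortices of mice 3 and 14, 7 members were among the first 20 genes and 8 among the first 50, and the median r was 0.85 for the members. The 10 other genes most like Ttr then shared 6 with the above, and Mfrp, F5, Lmx1a and Cdh3 took the place of Sostdc1, Krt18, Drc7 and Calml4. Of the 10 from all libraries, 7 stood in a list of 22 other choroid plexus genes, 21 of which were measured. The members and this list were chosen with earlier results of these data known, so these overlaps and the counts below are descriptions.

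In hippocampus 16 of the 21 genes had an r with Ttr over 0.7, against 1.17% of all genes. In cortex 10 of 21 had one, against 0.227% of all genes. The medians were 0.87 and 0.67, against -0.02 and 0.00 for all genes. Without the cortices of mice 3 and 14, the cortical count was 14 of 21, against 1.03% of all genes, and the median 0.75. In cerebellum no r over all 12 libraries is given, since 26.6% of all genes had an r over 0.7 with mouse 12. Over the other 11 cerebella, 0 of 21 had one, against 0.676% of all genes, and the median was 0.072. Ttr ran only from 1.18 to 5.69 CPM in these. Some genes of the list were near the floor, such as Sostdc1 and Krt18 with cerebellar medians of 0.0339 and 0.0638 CPM, so little can be read from this count. The summed level of the list was 250.3 to 1286 CPM in hippocampus, 284 to 810 CPM in cortex and 208 to 262 CPM in 11 cerebella, with 571 CPM in the cerebellum of mouse 12. Enpp2 alone held much of these sums, with 969 of the 1286 CPM in the hippocampus of mouse 7, 652 of the 810 CPM in the cortex of mouse 5 and 387 of the 571 CPM in that cerebellum. Without Enpp2 the sum was 129 to 317 CPM in hippocampus, 74.1 to 158 CPM in cortex and 105 to 183 CPM in cerebellum. Between genotypes 0 of 15, 18 and 18 tested genes of the list passed in cerebellum, hippocampus and cortex by edgeR.

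Markers of neighbouring tissues had lower correlations with Ttr in hippocampus and cortex. The 8 ependymal genes, which mark the ciliated cells that line the ventricles, had a median r with Ttr of 0.46 in hippocampus and -0.01 in cortex, and their sum ran from 11.7 to 29.5 CPM and from 10.6 to 26.2 CPM. In Gnb5+/+ hippocampus that sum was highest in mice 17 (29.5 CPM) and 7 (27.1 CPM), which also had the most Ttr, followed by mouse 8 (23.8 CPM), which had the least. In Gnb5-/- hippocampus it was highest in mouse 10 (22.3 CPM), which also had the most Ttr. The part of ependyma in the hippocampal values was not tested. For the 10 genes of leptomeninges and fibroblasts the median r was 0.03 and -0.24, and for the 5 endothelial genes 0.31 and 0.07. The 5 thalamic genes gave -0.22 and -0.13, and the 6 striatal genes 0.18 and -0.09. Over the 11 cerebella other than that of mouse 12, the medians were 0.14 (ependyma), 0.085 (leptomeninges), 0.17 (endothelium), 0.052 (thalamus) and 0.11 (striatum). None of the genes of these lists was called between genotypes in any region by edgeR.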

How the data were processed

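RNA-seq was done on brain regions of mice with and without Gnb5, and the authors deposited 1 file of raw counts per gene and sample. Per the labels and the study's methods, they trimmed reads with Cutadapt 1.8, removed ribosomal and low-complexity reads, aligned to GRCm38 (Ensembl 92) with STAR 2.5.3a and counted with HTSeq 0.9.1. The strand setting of the counting was not given in the sources used here. Entries for reads outside genes, ambiguous or not unique were left out of library sizes and tests, and the first made up 6.86% to 16.97% of uniquely placed reads.

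Counts were tested with edgeR 4.0.16 in R 4.3.3 (TMM, filterByExpr with a count minimum of 10, quasi-likelihood test, Benjamini-Hochberg adjustment at 0.05). Genotypes were compared within each region on 12 libraries, and regions in 1 fit of 36 libraries with the mouse as block, since each mouse gave all 3 regions. Standard errors are the log2 difference divided by the root of F. Single values were also tested by exact two-sided permutation over 924 splits of the mice or 4096 sign flips, and correlations by 100000 two-sided permutations within genotype. Nothing in the labels ties equal replicate numbers of both genotypes together, and their residuals were not positively correlated. DESeq2 1.42.0, other scaling, no filter, Ttr as a covariate, the replicate block and each library left out were alternatives. Values without libraries of few reads outside genes, and Dixon's test on log2 CPM, were added after seeing the data. The edgeR test and the permutation test of correlations were also run on simulated data. These held no outlying library and no shared mouse effect, so that check does not cover such features. CPM used TMM sizes of the 36 brain libraries, and log2 CPM a prior count of 2. Exon lengths came from GENCODE M21, which held 53620 of 53715 identifiers.

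The text names the 10 members, Gnb5, the 10 other genes with the highest r with Ttr, and any listed gene called between genotypes. The lists were other choroid plexus epithelium, ependyma, leptomeninges and fibroblasts, endothelium, thalamus, striatum, cerebellum, hippocampus and cerebral cortex. Members and lists were chosen with earlier results of these data known. The labels name the mice, so that replicates are separate animals.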

Additional observations from a re-analysis of the deposited data

Results flagged for a closer look

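Of 60 groups of 6 libraries (10 members in 6 groups), 25 held a library far from the other 5, by Dixon's test at the 95% level. All 25 were high values. The test was run on CPM, a linear and right-skewed scale on which a high value stands apart more readily, and members of 1 library are not independent of each other, so that the 1 in 20 groups that chance gives for normally distributed values is no measure for this count. On log2 CPM, a scale added after seeing the data, 9 of the 25 passed and none besides them.

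The cerebellum of mouse 12 (Gnb5-/-) stood out for 6 members, with Ttr at 853 CPM, Kl at 9.82, Folr1 at 4.36, Kcnj13 at 4.67, Kcne2 at 4.14 and Aqp1 at 1.19 CPM. It is also 1 of the 3 libraries with few reads outside genes, whose part in these values was not tested. All 6 passed on log2 CPM too.

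The hippocampus of mouse 10 (Gnb5-/-) stood out for 7 members, with Ttr at 243 CPM, Folr1 at 1.82, Clic6 at 5.80, Kcne2 at 1.97, Aqp1 at 1.95, Slc4a5 at 2.07 and Otx2 at 1.73 CPM. Of these, Kcne2 and Slc4a5 passed on log2 CPM and Ttr did not. The hippocampus of mouse 7 (Gnb5+/+) stood out for 5, with Ttr at 1414 CPM, Kl at 107, Folr1 at 11.6, Aqp1 at 9.64 and Slc4a5 at 15.4 CPM, none of which passed on log2 CPM.

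The cortex of mouse 5 (Gnb5-/-) stood out for 5 members, with Kl at 36.4 CPM, Kcnj13 at 7.35, Aqp1 at 5.54, Slc4a5 at 7.88 and Prlr at 13.4 CPM, of which Prlr passed on log2 CPM. Only 1 member stood out in the cortex of mouse 16 (Gnb5+/+), Clic6 at 7.27 CPM, and 1 in the cerebellum of mouse 8 (Gnb5+/+), Aqp1 at 1.21 CPM, and neither passed on log2 CPM.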

How the results depend on the processing

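No alternative called a member between genotypes, and member counts between regions stayed within 1.5 times. The number of all genes called between genotypes moved with DESeq2 to 49, 104 and 25 in cerebellum, hippocampus and cortex (from 14, 29 and 10), with Ttr as a covariate to 50 in cerebellum, and without the cortices of mice 3 and 14 to 26 in cortex. For the interactions, DESeq2 called 20 genes for cerebellum against cortex (from 2) and 9 for cerebellum against hippocampus (from 5), and 8 passed for the former without mice 3, 12 and 14.

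With the replicate number as a block, 5, 19 and 6 genes were called in cerebellum, hippocampus and cortex, and Kl in cerebellum turned to -0.15. Numbers did not pair the genotypes (correlation of residuals at most 0.07, 1 of 6 mice best with its own number in cerebellum and 0 in the other regions). Without the block on mice, 4 genes were called for the interaction of cerebellum and cortex, Kcnj13 between cerebellum and hippocampus turned to -0.11, and Ttr and Folr1 between hippocampus and cortex to 0.25 and 0.24. Without mice 3, 12 and 14, Kcnj13 turned to -0.34 and Folr1 to 0.21. Without the cerebellum of mouse 12, members with an SD above 1 there fell from 5 to 0 and the SD of Ttr from 3.63 to 0.91, 1 relation with Ttr passed there, and r turned to -0.086 for Kcnj13, -0.15 for Kcne2, -0.25 for Prlr and -0.014 for Otx2.

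With 1 library or mouse left out at a time, genes called between genotypes ranged from 9 to 62 in cerebellum (62 without mouse 12, 30 without mouse 15) and from 8 to 22 in cortex (22 without mouse 14, 20 without mouse 15). The interactions of cerebellum ranged from 2 to 4 (cortex) and 1 to 6 (hippocampus). Members with an SD above 1 ranged from 0 to 5 in Gnb5-/- cerebellum and 0 to 7 in Gnb5-/- hippocampus, and the SD of Ttr from 0.91 to 4.06 and 0.94 to 1.90.

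The log2 genotype difference changed sign in cerebellum for Ttr (-0.19 to 5.90), Aqp1 (-1.05 to 0.37), Kcnj13 (-0.13 to 0.51), Kl (-0.54 to 0.57), Otx2 (-0.10 to 0.062), Prlr (-0.40 to 0.088) and Slc4a5 (-0.087 to 0.23). In cortex it did so for Folr1 (-0.12 to 1.49), Kl (-0.22 to 0.93), Prlr (-0.34 to 0.51) and Slc4a5 (-0.46 to 1.88). Between hippocampus and cortex, Ttr ranged from -0.84 to 0.34, Aqp1 from -0.14 to 0.51, Folr1 from -0.51 to 0.36, Kcne2 from -0.28 to 0.87 and Slc4a5 from -0.41 to 0.72, and Kcnj13 between cerebellum and hippocampus from -0.12 to 0.59. The causes were not tested. Folr1 and Kcne2 in cerebellum are limited by depth.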

Other observations

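The series also held 36 heart libraries, 18 each of atria and ventricles. They came from Gnb5+/+, Gnb5+/- and Gnb5-/- male mice, and the Gnb5+/- mice gave no brain library. The values below pool these genotypes. Ttr had a median of 0.571 CPM in atria (0.0941 to 6.47) and 0.123 CPM in ventricles (0 to 0.856). Otx2, Kcnj13 and Kcne2 had 0 to 3 reads per library, and Slc4a5 had 0 to 8. Clic6 had a median of 3.04 CPM in atria and 0.123 CPM in ventricles, Kl of 0.813 and 0.0657 CPM, and Folr1 of 0.958 and 0.0312 CPM. Aqp1, which is known in the endothelium of small vessels, was 143 to 287 CPM, and Prlr was 4.15 to 20.6 CPM. No comparison was made between heart and brain.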
